A study of Mus musculus with 18 samples.

Results

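The 7 visceral fat samples of the nondiabetic Con, SD mice were described on their own, out of 18 in the series, with 1 array per mouse. They were chosen by their sample titles, and the 6 STZ, SD and 5 STZ, BEZ arrays were not used. All 7 donors were male wildtype C57BL/6N animals of 5 to 6 months, housed under specific pathogen-free conditions and fed plain standard diet (SD). By the sample labels they were mock-injected with citrate buffer on 5 consecutive days at an age of 10 to 16 weeks, whereas the paper calls its control mice untreated. Total RNA was hybridised to Mouse Gene 1.0 ST arrays of Affymetrix. The deposited values are log2 signals, and 19938 genes were measured with a single probe set each.

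White fat stores triglycerides in adipocytes, which take up fatty acids from the blood, make further fatty acids from glucose, and release hormones such as leptin and adiponectin. Visceral fat also holds blood vessels, fibroblasts, macrophages and a covering of mesothelium. In male mice a large visceral pad lies along the epididymis, the duct in which sperm mature. The labels do not say which depot was taken.

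The arrays were alike in their distribution, with medians between 6.76 and 6.86, and the correlation across probe sets was 0.941 to 0.986 between pairs of arrays. Pairs of arrays shared at most 61 identical values, too few for a duplicate deposit. The first principal component held 58.0% of the variance, with scores of 62.2, 31.5 and 30.4 for mice 5, 1 and 3 and between -42.9 and -17.1 for the other mice. The mean signal of 26 epididymis genes was 10.96, 10.94, 8.39 and 7.39 in mice 5, 3, 6 and 1, and between 6.18 and 6.91 in mice 2, 4 and 7. Mice 1, 3 and 5 stood apart from the rest on this component, and the counts of genes that varied between mice are also given without them, a setting chosen after the values had been seen.

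The label was borne out by the adipocyte genes. Of 19 white adipocyte markers measured, 18 had a mean signal of at least 10 on the log2 scale, a level reached by 1393 of all 19938 genes (6.99%). Adipoq, which encodes adiponectin, had a lowest, median and highest signal of 11.93, 12.52 and 12.69. Plin1, the coat protein of the lipid droplet, had 11.68, 12.36 and 12.54. Both were lowest in mice 5 and 1. The level of a probe set depends on its own binding as well as on its RNA, so the following order is one of signals and not of transcript numbers.

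The highest signal was that of a probe set named for Baiap2l1, a protein of the actin cytoskeleton, at 13.80 ± 0.05 (mean ± SD, n = 7). This rank rests on 1 of the 3 probe sets named for the gene, since the others had means of 11.90 and 7.73. Their SDs were 0.02 and 1.18, and whether the 3 measure the same RNA was not tested. The small nuclear RNA Rn7sk had 13.71 ± 0.05, and its other probe set 13.27. These were followed by Scd1, the desaturase that makes monounsaturated fatty acids, at 13.61 ± 0.05. Car3, the carbonic anhydrase of fat cells, had 13.59 ± 0.07, and Actb, an actin of the cytoskeleton, had 13.53 ± 0.07. The ranges of neighbours in this order overlapped, so that Scd1 lay between 13.53 and 13.68 and Car3 between 13.46 and 13.65. Retn, which encodes the adipocyte hormone resistin, was the seventh at 13.31 ± 0.15, and the RNA components Rny3 and Rpph1 had 13.37 ± 0.07 and 13.11 ± 0.10. The rest of the 20 genes of highest signal were housekeeping and structural genes such as B2m, Vim, Eef1a1, Fth1, Rps6 and the mitochondrial COX2, the matrix protein Sparc, and Dgat2, the enzyme of the last step of triglyceride synthesis, at 12.98 ± 0.28. Further lipid genes followed below them. Apoe had 12.87 ± 0.12, Lpl, the lipase that takes fatty acids from lipoproteins, 12.83 ± 0.25, and the fatty acid transporter Cd36 12.75 ± 0.26.

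The median SD of the 20 highest was 0.0906, compared with 0.189 over all genes. The highest signal of any probe set was 14.09, and whether differences are compressed so near the top of the scale was not tested. Over all genes with a mean of at least 10 it was 0.194, close to that of all genes. None of the 52 cytosolic ribosomal protein genes had an SD over 0.5, and 39 of them had a mean of at least 10. Olfactory receptor genes, which are not used in fat, gave a measure of background: the 95th percentile of their mean signals was 6.20 over 1027 genes, and 13615 genes (68.3%) lay above it.

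An SD over 0.5 between mice was found for 1911 of 19938 genes (9.58%), over 1 for 484 and over 2 for 91. The 100 genes of largest SD held 21.5% of the summed variance of all genes and the first 300 held 37.8%. With mice 3 and 5 left out, 1226 genes had an SD over 0.5, and with mice 1, 3 and 5 left out the number was 469. Both settings were chosen after the values had been seen.

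**Figure D1:**
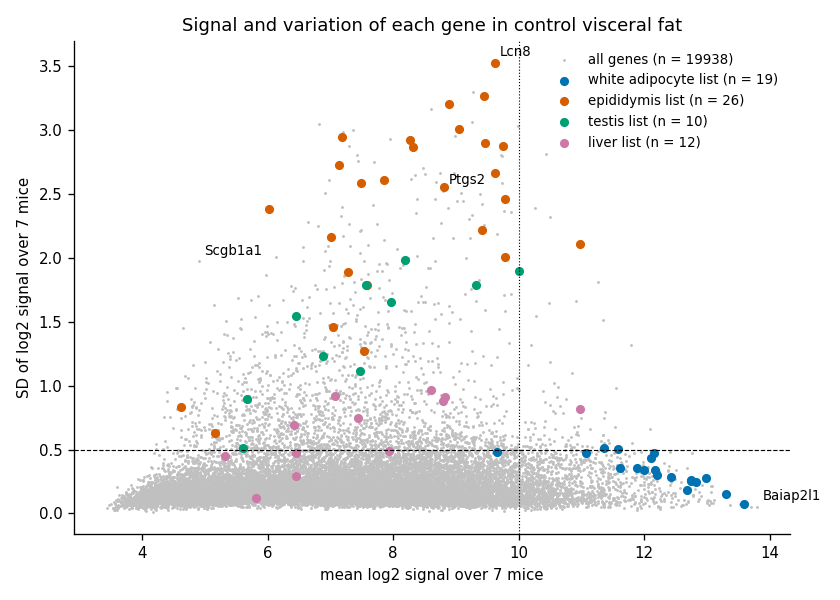
Mean log2 signal (x axis) and SD (y axis) of 19938 genes over the 7 control mice, with 4 gene lists in colour. The dashed line marks an SD of 0.5 and the dotted line a mean of 10; the epididymis genes lie high, with Lcn8 at an SD of 3.53, while the white adipocyte genes lie at the lower right.

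The genes that varied most were those known from the male reproductive tract. All 26 measured genes of the epididymis list and all 10 of the testis list had an SD over 0.5, and the median SD was 2.57 and 1.60. The largest SD of any gene was that of Lcn8, a lipocalin secreted in the initial segment of the epididymis: 5.20 in mouse 2, a median of 9.53, and 13.43 in mouse 5, with 13.42 in mouse 3. Gpx5, the glutathione peroxidase of the epididymis, ranged from 5.02 in mouse 1 through a median of 10.43 to 12.62 in mouse 5. Adam7, a membrane protein passed to maturing sperm, was lowest in mouse 7 (7.30), had a median of 11.49 and reached 13.08 in mouse 5. Thus the signals of single genes lay near those of olfactory receptors in some mice and among the highest of all genes in others. Families grouped by symbol after the values had been seen showed the same: an SD over 0.5 was found for 26 of 40 defensins, 7 of 11 lipocalins, 5 of 5 ribonucleases from Rnase9 to Rnase13, 6 of 10 Pate genes, 7 of 12 Spink genes and 9 of 18 Wfdc genes, but for 1 of 51 small nucleolar RNAs and 4 of 291 microRNA genes. A contribution of epididymal tissue to the samples was not tested. With arrays of whole tissue, fewer cells of a type and less RNA per cell cannot be told apart.

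Without mice 1, 3 and 5, 22 of the 26 epididymis genes and 5 of the 10 testis genes still had an SD over 0.5. Over all genes it was 469 of 19938 in this setting. Lcn8 and Gpx5 had the largest SD of all genes except predicted ones among the remaining 4 mice, at 2.96 and 2.81. The counts given below for other lists without mice 1, 3 and 5 are to be read beside the same 469 genes, and not beside 9.58%.

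**Figure D2:**
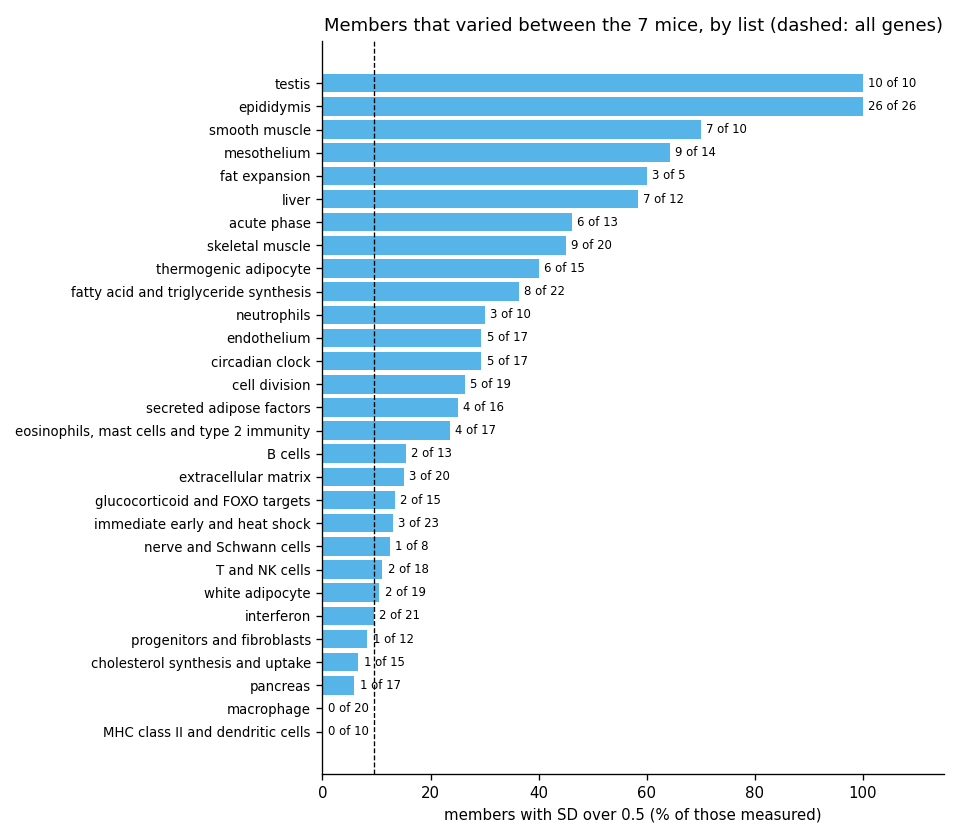
Share of measured members with an SD over 0.5 between the 7 mice, for the lists with at least 5 members measured, with the counts beside the bars. The dashed line marks the share of all genes, 9.58%; epididymis and testis genes reach 100% and macrophage and MHC class II genes 0.

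To see which genes varied together, the 300 genes of largest SD, all above 1.27, were joined by average linkage on 1 minus Pearson's r and separated at 0.3. This gave 4 groups of at least 10 genes with 297 genes in all, and each group had its own pattern over the mice. Since the groups were made from these values, their patterns are descriptions without a test, and all correlations rest on the same 7 arrays.

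Group 1 had 142 genes, which were on average 2.21 and 1.56 above their means in mice 1 and 5, above them also in mouse 3, 0.34 above in mouse 2, and 1.31 to 2.10 below in mice 6, 4 and 7. It held 14 defensins and 6 Wfdc genes, both of which encode small secreted proteins, many of them antimicrobial. Spint4, a protease inhibitor of the epididymis, had 5.93 in mouse 7, a median of 9.93 and 13.19 in mouse 1. Serpina1f, another inhibitor of the same tissue, had 6.41, 12.33 and 12.91, and the lowest and highest values were again in mice 7 and 1. The beta-defensin Defb38 lay between 4.10 in mouse 7 and 10.85 in mouse 1. Genes of epithelial cells were also members: Krt18, a keratin, had a lowest signal of 7.65, a median of 10.05 and a highest of 11.52, and the adhesion protein Cdh1 had 6.60, 8.88 and 10.43. Mice 1, 3 and 5 were highest for both of them, and mice 7 and 4 lowest. Npy, a neuropeptide of sympathetic nerves, also fell into group 1, at 12.18 in mouse 1 and 7.01 in mouse 4.

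Group 2 had 85 genes and a different order of mice. They were 2.83 and 2.74 above their means in mice 5 and 3, 0.18 above in mouse 6, and 1.12 to 1.78 below in the other mice, mouse 1 included. The group held 17 of the 26 epididymis genes, all 7 of the lipocalins with an SD over 0.5, and 8 defensins. Cstdc2, a cystatin-like protein, had 5.44 in mouse 1, a median of 9.13 and 13.14 in mouse 3. The kinase receptor Ros1, which the initial segment of the epididymis needs to differentiate, had 5.73, 6.47 and 10.08. Both were highest in mice 3 and 5. Lcn2, a lipocalin counted among the acute phase genes and the secreted factors of fat, was a member too, with 13.42 and 13.36 in mice 3 and 5 and a lowest signal of 10.33 in mouse 7. So was Egr2, of the immediate early genes, with 10.13 and 10.31 in mice 3 and 5 and 7.05 to 7.64 in the rest. Groups 1 and 2 thus parted in mouse 1, where Spint4 had its highest signal and Lcn8, at 5.57, its second lowest.

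Group 3 had 59 genes, 3.02 above their means in mouse 5, 0.57 above in mouse 1, and below in the others. It held 6 of the 10 testis genes, which are used by spermatids and sperm. Prm2, a protamine that packs the DNA of sperm, had 7.34 in mouse 4, a median of 9.51 and 12.67 in mouse 5. Ldhc, the lactate dehydrogenase of sperm, had 5.73, 7.01 and 11.06, and Akap4, an anchoring protein of the sperm tail, had 5.29, 5.71 and 9.60. Each was highest in mouse 5 and lowest in mouse 4. For Akap4, mouse 1 followed at 7.18, but for Prm2 it reached 11.85.

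Group 4 had 11 genes, 2.34 and 2.20 above their means in mice 1 and 2 and 0.75 to 1.04 below in the others. Ptgs2, the inducible cyclooxygenase, had 12.36 and 12.61 in mice 1 and 2 and 7.07 to 7.50 in the rest. Pcp4, a regulator of calmodulin, had 12.04 and 11.87 there and at most 7.57 elsewhere. Cnn1, a calponin of smooth muscle, had 12.04 and 11.31 against 8.26 to 9.40. In all 3 genes, mice 1 and 2 did not overlap with the others.

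**Figure D3:**
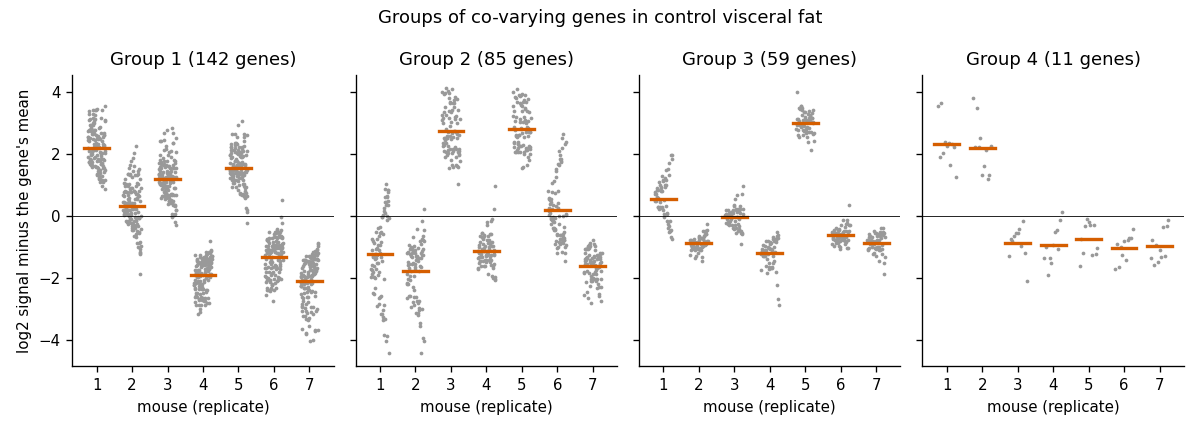
Log2 signal minus the mean of the gene (y axis) for each member of the 4 groups (grey points) in mice 1 to 7, with the group average as a bar. Group 1 is high in mice 1, 3 and 5, group 2 in mice 3 and 5, group 3 in mouse 5 and group 4 in mice 1 and 2.

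Single mice carried some of this grouping. For each mouse left out, the genes of largest SD were chosen anew before they were grouped. A gene could thus leave its group by a smaller SD as well as by a changed correlation. The following counts do not tell these apart. Without mouse 5, at most 6 of the 59 genes of group 3 remained together in a group, and without mouse 1 or mouse 2 none of the 11 genes of group 4 did. Without mouse 1, a single group of 289 genes resulted. Without mouse 3, at most 49 of the 85 genes of group 2 remained together. For group 1, 112 to 136 of its 142 genes lay in 1 group when each mouse was left out in turn. That group could hold genes of other groups too. Without mouse 1 it was the single group, in which groups 1 and 2 were not separate.

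Some members of a group lay next to each other in the order of the measured genes along the genome. By RefSeq positions, 30 of the 142 genes of group 1 and 25 of the 85 of group 2 were next to another gene of their group. The counts were 6 of 59 in group 3 and 0 of 11 in group 4. Genes that were not measured may lie between such neighbours. A smaller group has fewer possible neighbours, and the shares were not compared by a test. The share for sets of as many genes drawn from all genes was not worked out, so these counts do not show an excess. The promoters of 19 of the 26 epididymis genes were in the RefSeq table (250 bases before to 50 after the start, build GRCm38.p6). The hexamer TGTTCT, searched on both strands, is an arm of the element that the androgen receptor binds, and was chosen after the values had been seen. It was found in 9 of these 19 promoters (47.4%), in 32.0% of 103 promoters of group 1, in 33.8% of 68 of group 2, in 10.2% of 49 of group 3 and in 15.6% of all 15614 promoters. A match to so short a word is a description and not a binding site. A promoter from either of the first 2 groups is shown for a pair of genes each, on the strand of the gene, with the hexamer or its complement in capitals. Lcn9 (chr2:25822903-25823202, plus strand) and Lcn10 (chr2:25682476-25682775, plus strand) were members of group 2 with a highest signal of 12.79 and 11.97. Serpina16 (chr12:103676713-103677012, minus strand) and Defb23 (chr2:152464571-152464870, minus strand) were members of group 1 with a highest signal of 11.63 and 13.11.
Lcn9: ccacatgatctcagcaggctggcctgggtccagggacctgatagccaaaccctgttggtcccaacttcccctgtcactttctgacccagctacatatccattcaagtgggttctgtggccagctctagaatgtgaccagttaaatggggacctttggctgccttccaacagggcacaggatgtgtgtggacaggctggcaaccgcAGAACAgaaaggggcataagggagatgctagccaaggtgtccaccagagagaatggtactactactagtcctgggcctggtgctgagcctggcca
Lcn10: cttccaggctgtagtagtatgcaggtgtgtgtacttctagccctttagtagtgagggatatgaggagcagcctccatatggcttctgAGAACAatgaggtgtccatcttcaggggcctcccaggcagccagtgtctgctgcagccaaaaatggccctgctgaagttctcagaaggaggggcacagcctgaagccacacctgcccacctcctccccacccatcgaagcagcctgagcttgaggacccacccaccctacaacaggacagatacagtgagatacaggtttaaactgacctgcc
Serpina16: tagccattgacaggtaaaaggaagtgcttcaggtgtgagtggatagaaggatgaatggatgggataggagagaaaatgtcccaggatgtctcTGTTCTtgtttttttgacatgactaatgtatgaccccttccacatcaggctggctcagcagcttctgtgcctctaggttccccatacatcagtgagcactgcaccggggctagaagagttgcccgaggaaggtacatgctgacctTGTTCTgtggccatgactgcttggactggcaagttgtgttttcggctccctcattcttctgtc
Defb23: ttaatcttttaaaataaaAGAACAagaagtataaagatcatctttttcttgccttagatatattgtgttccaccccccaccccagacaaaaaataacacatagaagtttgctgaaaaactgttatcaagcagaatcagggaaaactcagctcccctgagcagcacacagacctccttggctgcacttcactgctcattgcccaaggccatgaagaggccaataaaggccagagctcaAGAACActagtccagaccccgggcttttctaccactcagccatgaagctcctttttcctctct
The match lay with its first base at -45 in Lcn9 and at -163 in Lcn10, counted from the start site. Serpina16 and Defb23 had 2 each, of which 1 lay at -13 in both.

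A few genes of large SD followed none of the 4 patterns. Of the 300, 3 were left without a group. Scgb1a1, the secretoglobin of airway club cells, had 9.38 in mouse 4 and 4.07 to 4.28 in the other mice. Rnase2a, a ribonuclease of eosinophils, had 5.87 and 6.41 in mice 3 and 1 and 10.68 and 10.86 in mice 4 and 7, with a median of 8.48. Igkv4-91, a variable segment of the antibody light chain, had 5.13 in mouse 2, a median of 6.18 and 9.07 in mouse 4. Over all genes, 1624 of 19938 (8.15%) had 1 array apart from the other 6 by Dixon's ratio, and among the 1911 genes with an SD over 0.5 the number was 461. In 388 of these mouse 5 was the highest, and in 52 mouse 1 was.

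Genes of other tissues and of the surface of the fat varied with other orders of mice. Of 12 liver genes 7 had an SD over 0.5, or 10 without mice 1, 3 and 5. Alb, which encodes albumin, had 9.53 in mouse 3, a median of 11.01 and 12.15 in mouse 2, and Ttr, the carrier of thyroid hormone and retinol, had 7.51, 8.27 and 10.32. Mouse 2 was the highest and mouse 1 the second for Alb, Ttr, Apoa1, Apoa2, Ahsg and Fgb. Of 20 skeletal muscle genes 9 had an SD over 0.5, or 5 without mouse 1, and also 5 without mice 1, 3 and 5. Ckm, the creatine kinase of muscle, had 10.19 and 9.33 in mice 1 and 2 and 7.66 to 8.05 in the others. Tnnt3, a troponin of fast fibres, had 10.29 and 9.44 there against 7.41 to 8.05. Of 10 smooth muscle genes 7 had an SD over 0.5, or 5 without mice 1, 3 and 5. Myh11, a smooth muscle myosin, had 11.23 and 10.57 in mice 1 and 2 and 8.80 to 9.40 elsewhere, whereas Actg2, a smooth muscle actin, was a member of group 1 and was highest in mice 3, 1 and 5 (12.04, 11.91 and 11.91).

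Markers of mesothelium were split. Krt8 and Krt18 belong to group 1 and were highest in mice 1, 3 and 5, and Krt19 lay between 7.00 in mouse 7 and 9.28 in mouse 5. Upk3b, a uroplakin, had 7.94 in mouse 5, a median of 9.25 and 10.14 in mouse 6. Lrrn4, a membrane protein of the same cells, had 6.53, 7.57 and 8.51, also lowest in mouse 5 and highest in mouse 6. Gpm6a had 6.96 in mouse 5 and 8.40 to 9.47 in the others. Msln, which encodes mesothelin, had an SD of 0.49 and the same lowest and highest mice. Of the 14 mesothelium genes 9 had an SD over 0.5, or 8 without mice 1, 3 and 5. Of 17 pancreas genes 1 had, or 0 without those mice, and the list mean lay between 6.01 and 6.28, close to the background of 6.20.

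**Figure D4:**
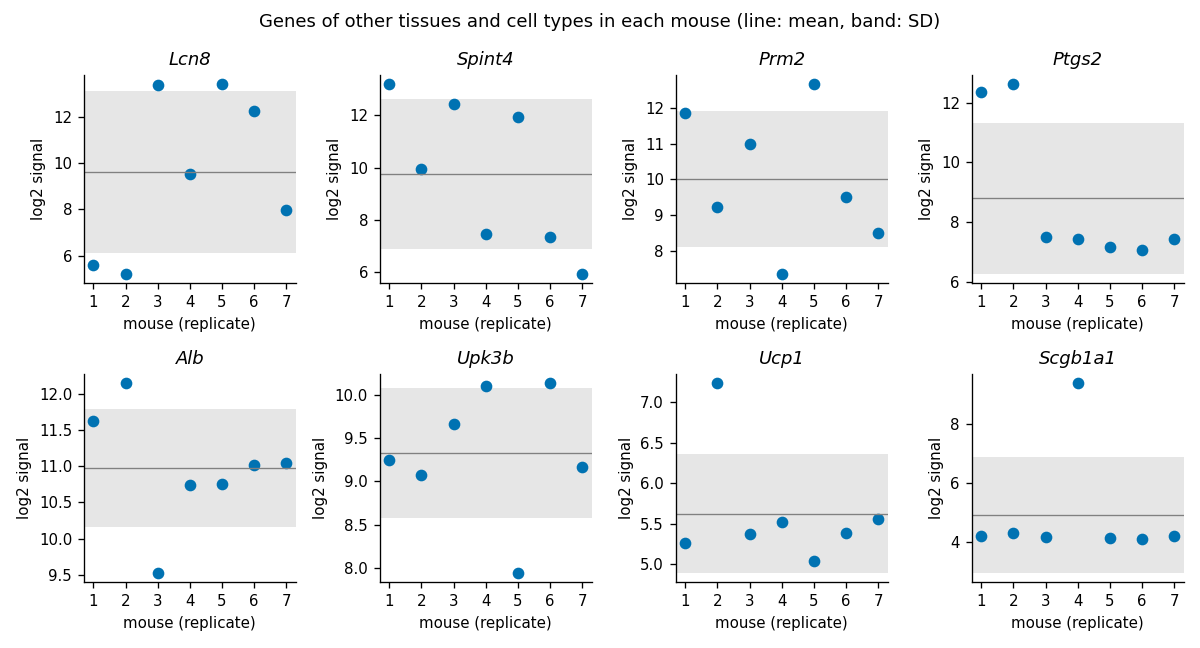
Log2 signal (y axis) of 8 genes in mice 1 to 7, with the mean as a line and the SD as a band. Each gene has its own order of mice: Lcn8 is highest in mice 3 and 5, Spint4 in mouse 1, Prm2 in mouse 5, Ptgs2 in mice 1 and 2, Alb and Ucp1 in mouse 2, Upk3b in mice 6 and 4, and Scgb1a1 in mouse 4.

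Few of the white adipocyte genes passed the limit. Of 19 white adipocyte markers 2 had an SD over 0.5, a share of the list close to that over all genes: Pparg, the transcription factor of fat cell formation (10.61, 11.61 and 11.84), and Gpd1, the glycerol phosphate dehydrogenase of fat (10.86, 11.58 and 12.31). Without mouse 1 or mouse 5 the count was 1, and without mice 1, 3 and 5 it was 0. The median SD of the list, 0.338, was nonetheless above that of all genes (0.189) and of genes with a mean of at least 10 (0.194). The mean of the list was 11.78, 11.79 and 11.94 in mice 1, 5 and 3 and 12.35 to 12.47 in the others, so that mice 1, 3 and 5 were the lowest. Mouse 6 had the highest adipocyte mean, 12.47, and a mean of the epididymis list (8.39) above that of mouse 1 (7.39), so that the order by epididymis genes was not the reverse of that by adipocyte genes. The lists of endothelium, macrophages and matrix were also low in mice 1, 3 and 5. The endothelial list had 8.97 to 9.28 in mice 5, 3 and 1 and 9.76 to 10.05 in the rest. The macrophage list had 8.67 to 8.79 against 9.01 to 9.57, and the matrix list 9.13 to 9.32 against 9.68 to 10.04. Over all genes, 1055 had an r below -0.9 and 710 an r over 0.9 with the average of group 1. The 142 members that made this average were included in the count, with a median r of 0.969 to it. The same counts were 110 and 345 for group 2, 417 and 782 for group 3, and 48 and 101 for group 4. How many unrelated genes would pass these limits over 7 arrays was not worked out. The part that tissue make-up has in these levels was not tested.

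Of 22 genes for the synthesis of fatty acids and triglycerides 8 had an SD over 0.5, or 3 without mouse 1, 4 without mouse 6 and 2 without mice 1, 3 and 5. Acss2, which makes acetyl-CoA from acetate, had 9.51 in mouse 1, a median of 10.69 and 11.73 in mouse 6. Me1, the malic enzyme that supplies NADPH, had 10.44, 11.55 and 12.44, and Acly, which makes acetyl-CoA from citrate, had 10.23, 10.96 and 11.79. All 3 were lowest in mouse 1 and highest in mouse 6. Fasn, the fatty acid synthase, showed that order on a smaller scale (12.06, 12.45 and 13.02). Scd1 had the highest signal of the list, 13.61, and an SD of 0.05. Its signal lay near the top of the scale, so this SD cannot be set beside those of the weaker genes. Pck1, which supplies the glycerol part of triglycerides, departed from the pattern, with 9.60 in mouse 5 and 10.68 to 11.29 in the others. Of 15 cholesterol genes 1 had an SD over 0.5, or 2 without mouse 3, 4 or 7 and 0 without mice 1, 3 and 5. It was Insig1, a sensor of sterols, at 10.08 in mouse 1, a median of 11.19 and 11.87 in mouse 6.

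The list of genes known to rise as fat pads expand had its highest means in mice 2, 4 and 7. Lep, which encodes leptin, had 11.55 in mouse 3, a median of 12.17 and 12.65 in mouse 7. Mest, an imprinted gene of fat cell growth, had 9.95, 11.01 and 11.99, and Sfrp5, an inhibitor of Wnt signals, had 7.66, 8.78 and 10.49. Lep, Mest, Sfrp5 and Bmp3 all had their highest signals in these mice, as did the means of the macrophage, MHC class II and acute phase lists. Of the 5 genes of the list 3 had an SD over 0.5, or 1 without mice 1, 3 and 5. The genes with an SD over 0.5 nearest to Lep by Pearson's r over the 7 mice were Srpx2, Ptchd4, Pcolce2, Aspn and Lctl (r = 0.978 to 0.988). Leaving out single mice kept 0 to 4 of these 5, and no test applies to genes picked for their likeness.

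Of 15 thermogenic genes 6 had an SD over 0.5, or 4 without mice 1, 3 and 5, in several orders of mice. Ucp1, the uncoupling protein of brown and beige fat, had 7.24 in mouse 2 and 5.04 to 5.56 in the others, below the background of 6.20. Cidea, a lipid droplet protein of thermogenic fat, had 7.57 against 5.82 to 6.38, and Elovl3, an elongase, had 5.90 against 4.89 to 5.28, all of it below background. Sprr1a, a protein of stratified epithelia that was nearest to Ucp1 over the mice, had 9.99 in mouse 2 and 6.33 to 7.22 elsewhere. Without mouse 2 the SD was 0.19 for Ucp1, 0.21 for Cidea and 0.32 for Sprr1a. The other variable members had different orders. Cited1, a transcriptional coactivator and the member of largest SD (0.86), had 9.16, 9.02 and 8.46 in mice 2, 1 and 5 and 7.00 to 7.68 in the others. Slc27a2, a fatty acid transporter and acyl-CoA synthetase, had 6.66 in mouse 7, a median of 7.93 and 8.44 in mouse 2. Fabp3, a fatty acid binding protein, was highest in mouse 5 (8.23). Cox8b, a subunit of cytochrome oxidase, was highest in mouse 6 (9.81) and then in mouse 2 (9.63).

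**Figure D5:**
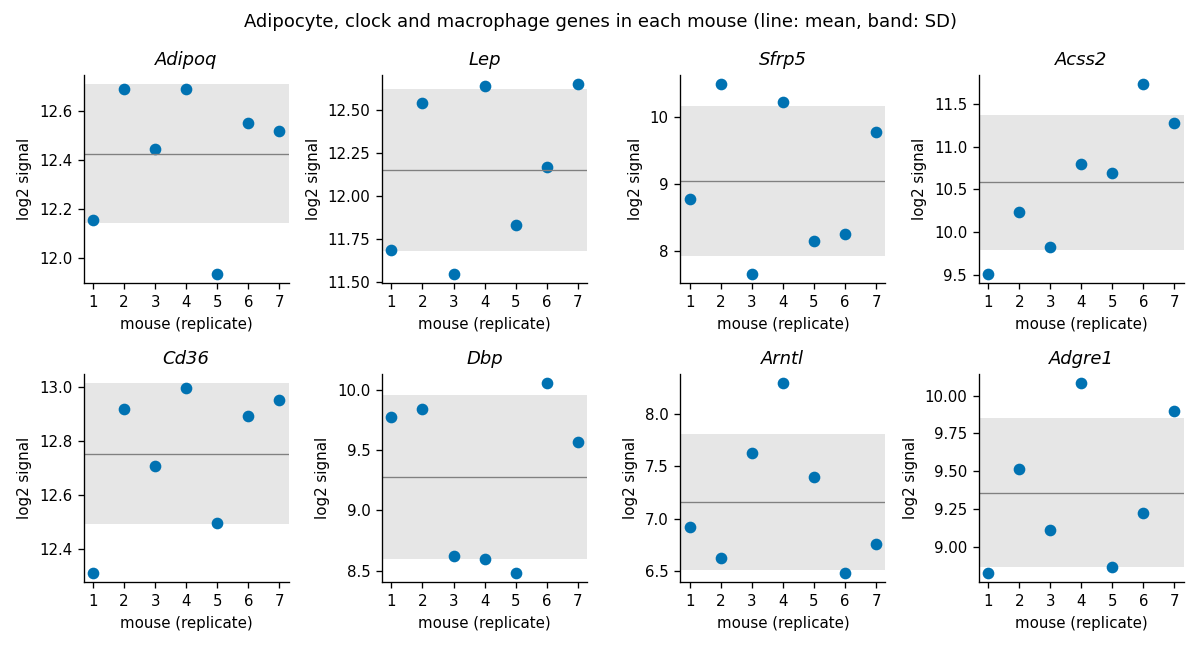
Log2 signal (y axis) of 8 genes of adipocytes, the clock and macrophages in mice 1 to 7 (line, mean; band, SD). Adipoq is lowest in mice 5 and 1, Lep and Sfrp5 are highest in mice 2, 4 and 7, Acss2 is highest in mouse 6, and Arntl is highest in mouse 4, where Dbp is among the lowest.

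Clock genes drive daily rhythms in fat and in most tissues, and the time of day of sampling is not given in the sources used here. Of 17 clock genes 5 had an SD over 0.5, or 2 without mouse 4 and 3 without mice 1, 3 and 5. Dbp, an output of the clock, had 8.48 in mouse 5, a median of 9.57 and 10.06 in mouse 6. Ciart, a repressor within the clock, had 6.23 in mouse 4, a median of 7.46 and 8.12 in mouse 6. Arntl, which encodes the activator BMAL1, had 6.48 in mouse 6, a median of 6.92 and 8.30 in mouse 4, so that its lowest and highest mice were those in which Ciart was highest and lowest. Dbp fell into separate clusters, with 8.48 to 8.62 in mice 3, 4 and 5 and 9.57 to 10.06 in the others, and no correlation is given. Usp2, a further clock-controlled gene, followed neither pattern and was highest in mouse 5 (9.88), as was Bhlhe41 (8.64), which had 8.62 in mouse 3.

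The clock activator binds the E-box CACGTG. This word, which reads the same on both strands, was found in 5 of 15 clock gene promoters in the RefSeq table (33.3%) and in 8.38% of all 15614. Ciart held 3, while Cry1, Per1, Tef and Bhlhe41 held 1 each and Dbp held 0 within this window. The promoters of the members with a match and an SD over 0.5 are shown with the E-box in capitals: Ciart (chr3:95882179-95882478, minus strand) and Bhlhe41 (chr6:145865371-145865670, minus strand).
Ciart: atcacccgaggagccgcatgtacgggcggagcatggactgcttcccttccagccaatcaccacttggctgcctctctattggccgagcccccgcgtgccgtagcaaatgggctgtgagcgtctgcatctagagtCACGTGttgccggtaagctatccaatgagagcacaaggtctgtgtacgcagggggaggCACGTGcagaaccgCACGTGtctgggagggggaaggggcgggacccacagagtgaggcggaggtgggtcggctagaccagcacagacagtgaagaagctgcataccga
Bhlhe41: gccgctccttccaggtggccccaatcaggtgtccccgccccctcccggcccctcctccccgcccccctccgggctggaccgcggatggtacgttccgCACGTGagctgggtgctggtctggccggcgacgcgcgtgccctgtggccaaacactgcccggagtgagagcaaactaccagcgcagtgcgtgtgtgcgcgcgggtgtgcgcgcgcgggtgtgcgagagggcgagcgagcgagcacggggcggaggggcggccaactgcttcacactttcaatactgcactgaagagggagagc
The E-boxes of Ciart began at -116, -58 and -44, and that of Bhlhe41 at -153.

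Lists of immune and dividing cells differed in how many members varied. None of 20 macrophage genes and none of 10 MHC class II and dendritic cell genes had an SD over 0.5, although without mouse 2 or mouse 6 the macrophage count was 4. The median SD of the macrophage list, 0.398, was nonetheless above that of all genes. Of 17 genes of eosinophils, mast cells and type 2 immunity 4 had an SD over 0.5, or 1 without mouse 5. Of 10 neutrophil genes 3 had, or 1 without mouse 4, and of 13 acute phase genes 6. Without mice 1, 3 and 5 these counts were 1, 3 and 4. Adgre1, which encodes the marker F4/80, had 8.83 in mouse 1, a median of 9.22 and 10.08 in mouse 4. Cd74, the invariant chain, had 11.10, 11.42 and 11.85, also highest in mouse 4. Of 19 cell division genes 5 had an SD over 0.5, or 2 without mouse 5 and 0 without mice 1, 3 and 5. Mki67, the proliferation marker Ki-67, had 7.20 in mouse 1, a median of 8.15 and 8.43 in mouse 6, and was 7.20 to 7.48 in mice 1, 2 and 3 and 8.15 to 8.43 in the rest. Ccnb2 and Bub1, which act in mitosis, instead had 10.00 and 7.41 in mouse 5, where sperm genes were highest, and at most 8.32 and 6.09 in the others.

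Relations were examined for 20 pairs of genes with related roles. For 10 pairs at least 1 gene fell into separate clusters of mice, so that the relation could not be tested. Among the other 10, 5 passed an adjusted p under 0.05 by the two-sided exact permutation test over 5040 pairings (Benjamini-Hochberg over the 10). The macrophage genes Adgre1 and Csf1r correlated at r = 0.954 (exact permutation p = 7.94e-04, adjusted p = 0.00694) with rho = 0.893 (exact p = 0.0123, adjusted p = 0.0246), and at 0.888 without mice 4 and 7, which lay farthest from the median. The collagens Col1a1 and Col3a1 correlated at r = 0.954 (exact permutation p = 0.00139, adjusted p = 0.00694) with rho = 0.929 (exact p = 0.00675, adjusted p = 0.0225), and at 0.869 without mice 4 and 7.

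Lep was related to Mest and to Adgre1. For Lep and Mest, r was 0.921 (exact permutation p = 0.00377, adjusted p = 0.0126), with rho = 0.929 (exact p = 0.00675, adjusted p = 0.0225) and r = 0.867 without mice 3 and 7. For Lep and Adgre1, r was 0.894 (exact permutation p = 0.0109, adjusted p = 0.0218), with rho = 0.857 (exact p = 0.0238, adjusted p = 0.0397) and r = 0.944 without mice 3 and 7. H2-Aa and Cd74, of MHC class II, correlated at r = 0.912 (exact permutation p = 0.00794, adjusted p = 0.0198) with rho = 0.929 (exact p = 0.00675, adjusted p = 0.0225) and r = 0.848 without mice 4 and 7. The means of the macrophage, matrix and MHC class II lists were each lowest in mice 1, 3 and 5, and the part of tissue make-up in these relations was not tested. With mouse 2 left out, none of these 5 passed, and Adam7 and Lcn5 did. With mouse 6 left out, only Adgre1 and Csf1r passed. Not every case was a failed test, since the remaining mice could fall into separate clusters, where a pair was not tested. This held for Adgre1 and Csf1r without mouse 2, and for Col1a1 and Col3a1 without mouse 2 or mouse 6. It also held for Lep and Mest without mouse 6, and for Lep and Adgre1 without mouse 2 or mouse 6. Leaving out each mouse in turn, Adgre1 and Csf1r passed in 6 of 7 cases, all those in which they were tested. Their r was 0.919 to 0.970. Col1a1 and Col3a1 passed in 5, at r = 0.934 to 0.979. Lep and Mest passed in 5, at r = 0.892 to 0.969, and Lep and Adgre1 in 4, at r = 0.863 to 0.956. H2-Aa and Cd74 passed in 3, at r = 0.868 to 0.947, and were not tested in 1.

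The other 5 pairs did not pass. For Adam7 and Lcn5, both of the epididymis, r was 0.784 (exact permutation p = 0.0325, adjusted p = 0.0542), with rho = 0.893 (exact p = 0.0123, adjusted p = 0.0246) and r = 0.964 without mice 4 and 7. For Fasn and Acly, r was 0.742 (exact permutation p = 0.0540, adjusted p = 0.0771), but 0.197 without mice 1 and 6, on which the relation rested, and rho was 0.750 (exact p = 0.0663, adjusted p = 0.0828). For Lep and Fasn, r was 0.630 (exact permutation p = 0.132, adjusted p = 0.165) and rho 0.679 (exact p = 0.110, adjusted p = 0.122), with r = 0.464 without mice 3 and 7. For Adipoq and Adam7, r was -0.559 (exact permutation p = 0.167, adjusted p = 0.186) and rho -0.750 (exact p = 0.0663, adjusted p = 0.0828), with r = -0.288 without mice 1 and 5. For the immediate early genes Fos and Egr1, r was 0.455 (exact permutation p = 0.292, adjusted p = 0.292) and rho 0.321 (exact p = 0.498, adjusted p = 0.498), with r = 0.0560 without mice 1 and 5.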

How the data were processed

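Per the labels, probe signals were summarised with RMA (robust multi-array averaging) in Affymetrix Expression Console 1.2 by the authors, which gave log2 values for 35556 probe sets on 18 arrays, of which 0 value columns were left out. RMA makes the distributions of the arrays alike, though the array medians of the deposited values still lay between 6.76 and 6.86. Background was judged from olfactory receptor genes. The precision is limited by the number of arrays (n = 7, separate mice, without technical repeats). Of the probe sets, 21789 have a single gene symbol, 1621 several and 12146 no name here. For each of 19938 genes the probe set of highest mean over the 7 arrays was used, and 19856 matched RefSeq by Entrez ID. Genes were described by mean and SD, with limits of 10 and 0.5. Groups came from average linkage, and of 20 pairs examined 10 could be tested by exact permutation. Python 3.11.15, numpy 2.4.6, pandas 2.3.3 and scipy 1.17.1 were used.

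The 30 lists (500 entries, 456 measured), the genes and the motif CACGTG were chosen with earlier results of these data known. The named genes are the 20 of highest mean and 30 of largest SD (predicted genes left out), of each list the 4 of largest SD and 2 of highest mean, the genes of the pairs, the 5 nearest to each of 14 anchor genes and the 10 best members of each group. Further members were named after their values had been seen. Alternatives were the mean of all probe sets of a gene, quantile normalization over the 7 arrays, array medians set to 0, the median, the interquartile range, a filter at the olfactory background, Spearman's rho, 500 genes in place of 300, other probe sets, and each array left out in turn. The SD limit and the exact permutation test were checked on simulated arrays in which 200 genes had been changed. The simulated noise was equal and independent for all genes, unlike these arrays, so the 4 groups were not tested by it. Liver and skeletal muscle arrays were not analysed here.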

Additional observations from a re-analysis of the deposited data

Results flagged for a closer look

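Of the 150 genes named, 10 had 1 mouse apart from the other 6, by the gap to the nearest mouse divided by the range over all 7. Chance gives this in about 1 in 20 genes, and over all genes the share was 8.15%. Mouse 4 was the highest for Scgb1a1 (gap over range 0.961), and without it the SD dropped from 1.97 to 0.0732. Mouse 2 was the highest for Ucp1 (0.766), Sprr1a (0.756), Cidea (0.681) and Elovl3 (0.617). Mouse 5 was the highest for Ccnb2 (0.722) and Bub1 (0.607) and the lowest for Pck1 (0.640), Gpm6a (0.573) and the proteoglycan gene Dcn (0.713), which had 12.40 in mouse 5 and 12.82 to 12.99 in the others.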

How the results depend on the processing

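With 1 array per mouse, the spread between mice and the spread of the method cannot be told apart, and weak signals near the olfactory background have compressed differences. Under the alternative settings over all 7 arrays, the number of genes with a mean of at least 10 was 1325 to 1442 (1393 in the report). The number with an SD over 0.5 was 1583 to 1948 (1911) over all genes. Among only the 13615 genes above the olfactory background it was 1476. The 4 groups became 3 with Spearman's rho, and with 500 genes in place of 300, 486 were grouped, again in 4 groups. With quantile normalization over the 7 arrays 7 pairs passed, and with Spearman's rho 6 did (5 in the report). Leaving out each array in turn gave 1378 to 1423 genes of high signal, 1346 to 2109 genes with an SD over 0.5, 288 to 296 genes in 1 to 4 groups, and 1 to 5 pairs that passed (without mouse 2, a pair other than the 5 of the report). The lowest count of variable genes came without mouse 5 and the single group without mouse 1; with 6 mice fewer pairings are possible. Without mice 3 and 5, 1226 genes had an SD over 0.5, the grouped genes fell into 2 groups and 3 pairs passed; without mice 1, 3 and 5, the number of variable genes was 469. The cause of these differences was not tested. Of the other 567 values with an array left out, 436 did not move and 118 moved. In 12 a pair lost its call and in 1 a pair gained it. A pair counts here once for each array left out, and pairs in separate clusters, which were not tested, count as lost. Of 493 values under the other settings, 400 did not move. The genes nearest to a given gene depended most on single mice. No paired analysis was possible because the 7 arrays are a single group.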
